A study of Mus musculus with 6 samples.

Results

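Molecular chaperones and their partners were followed in mouse white fat with and without a fat cell Cre directed at Fto. The genes were those whose platform symbol named a heat shock protein of the Hspa, Hspb, Hsp90, Hspd1, Hspe1 or Hsph1 kind, a J-domain protein of the Dnaja, Dnajb or Dnajc kind, or a protein disulfide isomerase of the Pdia kind. The rule found 73 genes among 18193 with a probe set of 1 gene, and each was represented by the brightest of its probe sets over the 6 arrays. Of these, 68 lay above the filter on low levels and were tested, and Dnajb3, Dnajb7, Hspa1l, Hspb9 and Pdia2 lay below it. By textbook location, 35 of the 73 were placed in the cytosol and nucleus, 13 in the endoplasmic reticulum (ER), 7 in mitochondria, 2 in the ER membrane with the J domain in the cytosol and 3 on vesicles and endosomes, and 13 were left unplaced. Hsp90ab1 and Dnajc19 had no probe set of 1 gene in the platform annotation and were not analysed here.

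The tissue was epididymal fat, a visceral pad, from male C57BL/6 mice aged 16 weeks that ate chow and were fed freely at harvest. Control mice were FTO flox/flox. AFO mice were Adiponectin-cre FTO flox/flox, so every mouse carried the floxed alleles and the genotypes differ by the Cre, which the adiponectin promoter drives in fat cells and not in the other cells of the pad. Each genotype had 3 Affymetrix arrays, each from its own RNA pool, and the number of mice in a pool is not given in the sources used here. In RNA from a whole pad, fewer cells of a type and less RNA per cell cannot be told apart.

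Chaperones bind unfolded proteins and help them fold. In the cytosol Hsp70 proteins take substrates from J-domain proteins, pass some on to Hsp90, and are aided by Hsp110 exchange factors and small heat shock proteins that hold unfolded chains. The transcription factor Hsf1 raises many of these genes under heat or proteotoxic stress, and the unfolded protein response raises their counterparts in the ER when folding there is overloaded. Fat cells load the ER heavily, because they secrete adipokines such as adiponectin, whose multimers are held together by disulfide bonds.

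The values are log2 expression levels, and a difference of 1 is a factor of 2.00. Hybridisation differs between probe sets, so levels were compared between arrays and not between genes. Fat cell markers were high on every array, with a mean level of 11.5 to 12.1 over 5 genes. In each genotype the pool 2 array differed from the other arrays in its cell markers. The mean of 5 mesothelial markers was 5.36 and 4.44 on control and AFO pool 2 against 8.13 to 8.27 on the other arrays, that of 4 B cell markers 8.95 and 9.61 against 5.32 to 6.07, and that of 7 skeletal muscle markers 9.47 and 11.9. The muscle mean was also 9.62 on AFO pool 1, against 4.68 to 5.08 on the remaining 3 arrays. The difference between 3' and 5' probe sets of beta-actin, a sign of RNA quality, was 1.33 on AFO pool 3 and 0.726 to 0.948 elsewhere, and that of Gapdh 0.384 against -0.121 to 0.186. Fto itself read 5.96 ± 0.33 in control and 5.84 ± 0.35 in AFO fat (SD, n = 3), and since the deleted part is not given in the sources used here, this does not check the genotype.

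The means of most chaperone genes differed little between AFO and control fat. Of the 68 tested, 33 were higher and 35 lower in AFO by their means, with a median difference of -0.0032 and a range from -0.26 for Hspa12a to 1.27 for Dnaja4, where all 13453 genes tested had a median of -0.014. By limma without pairing, 0 of the 68 passed an adjusted p of 0.05, and 0 of all genes passed (0% higher and 0% lower in AFO), with an adjusted p of 0.999999 for every chaperone gene. At an unadjusted p under 0.05, limma left 1 of the 68, Dnaja4, against 1.03% of all genes. With pool number as a block 0 of the 68 passed (lowest adjusted p 0.99) where 0.0149% of all genes did, and 5 had an unadjusted p under 0.05, which is 7.35% beside 4.32% of all genes. In 2 of the 68, Dnaja4 and Hspb7, all AFO values lay above all control values, which is 2.94% beside 2.03% of all genes, and in 0 they lay below, beside 1.47% (3.5% in either direction). A missed threshold does not show equal levels. The 95% intervals of 59 of the 68 lay between -1 and 1, and for the others a change of that size was not excluded. Only 26 of the 68 had an interval between -0.5 and 0.5.

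**Figure D1:**
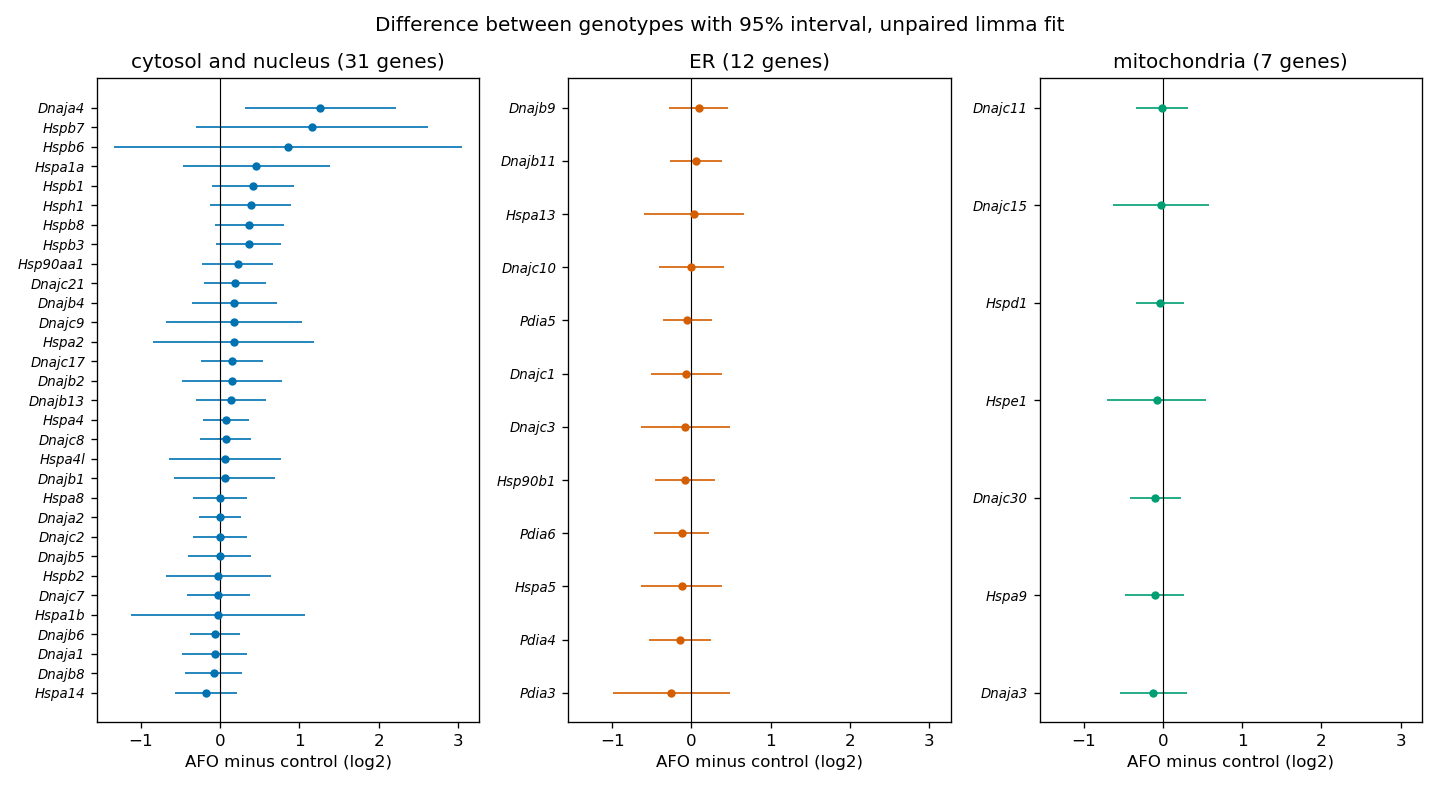
AFO minus control in log2 units (horizontal axis) for each tested gene of 3 compartments, with the 95% interval of the unpaired limma fit as a bar. The intervals cross 0 for all genes shown except Dnaja4, and those of Hspb6 and Hspb7 are the widest.

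The compartments differed in how their members were spread around 0. Of 31 tested cytosolic and nuclear genes 22 (71.0%) were higher in AFO, with a median difference of 0.14, a factor of 1.10. Of 12 ER genes 9 (75.0%) were lower, with a median of -0.071, and all 7 mitochondrial genes were lower, with a median of -0.079, where 54.3% of all genes were lower. The spread of the arrays around their genotype, as the pooled SD of each array's median deviation, was 0.0982 for the cytosolic, 0.201 for the ER and 0.174 for the mitochondrial genes, so the ER and mitochondrial shifts were smaller than that spread and the cytosolic one was larger. Within pools 1, 2 and 3 the cytosolic medians were 0.33, 0.075 and -0.0033, those of the ER 0.062, 0.051 and -0.26, and those of the mitochondria 0.11, -0.049 and -0.22. The sign of no compartment's median was therefore shared by all 3 pools. The cytosolic median was 0.037 without control pool 2 and 0.040 without AFO pool 1. The ER median turned to 0.012 without control pool 3 and to 0.021 without AFO pool 2, and the mitochondrial one to 0.036 without AFO pool 3 and to 0.017 with array weights.

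**Figure D2:**
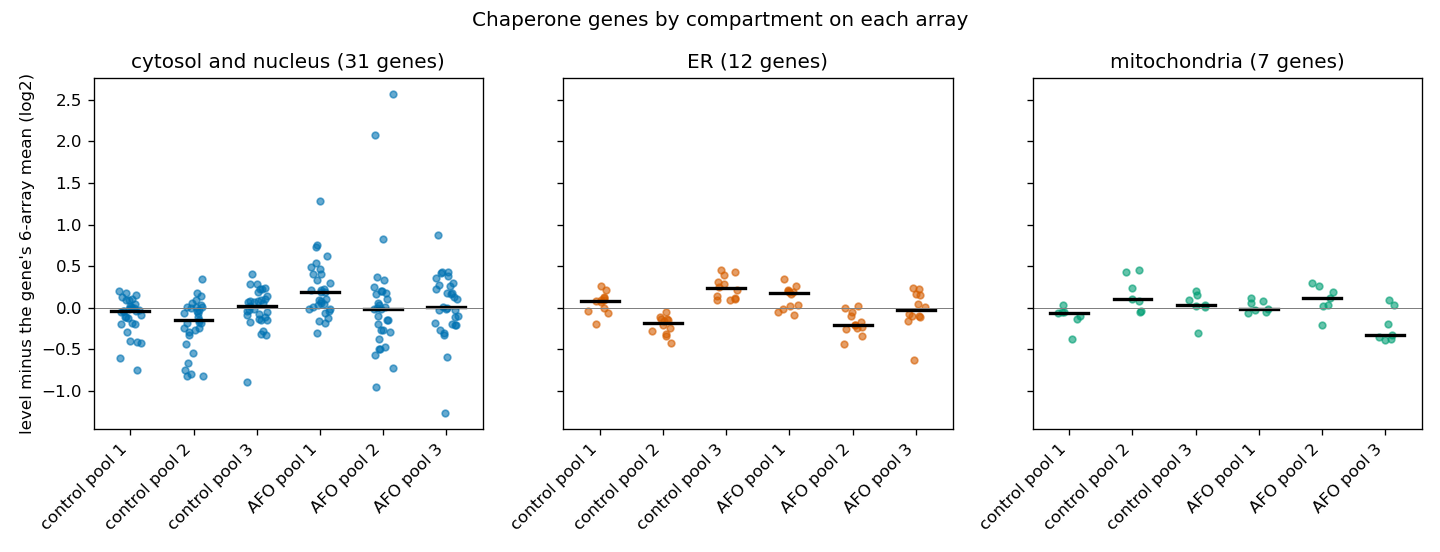
Each tested gene's log2 level minus its own mean over the 6 arrays (vertical axis) on each array, for 3 compartments, with a black line at the median. ER genes lie low on both pool 2 arrays (medians -0.18 and -0.20), mitochondrial genes lie low on AFO pool 3 (-0.33), and the 2 points far above the others on AFO pool 2 are Hspb6 and Hspb7.

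Dnaja4, a J-domain partner of cytosolic Hsp70, had the largest difference of the chaperone genes. It read 7.18, 7.10 and 7.60 in control pools 1, 2 and 3 and 9.21, 7.66 and 8.80 in the corresponding AFO pools (Entrez gene 58233). AFO pools 1 and 3 were far above the controls, while AFO pool 2 exceeded the highest control value by a margin that is small beside the spread within either genotype. The means were 7.29 ± 0.27 in control and 8.56 ± 0.80 in AFO fat (SD, n = 3), so AFO exceeded control by 1.27 (SE 0.40, 95% interval 0.31 to 2.22), or a factor of 2.40. Since the groups did not overlap, AFO was higher in 3 of 3 pools however the pools are paired. The limma adjusted p was 0.999999 without pairing and 0.99 with the block. Its other 2 probe sets above the filter differed by 0.95 and 1.43, and in both the groups overlapped. The 2 pool 2 arrays stand apart, and leaving them out kept pools 1 and 3 of each genotype. This removed the lowest AFO value of Dnaja4. In that fit Dnaja4 was the 1 chaperone gene that passed, beside 0.662% of all genes that passed in that direction. It rose by 1.62 (SE 0.21, limma adjusted p 0.0158). On so few arrays the p of such a fit rests largely on the spread that limma shares across genes. With the block as well, Dnaja4 had an SE of 0.19 and a limma adjusted p of 1.46e-05, beside 1.72% of all genes in that direction. Over all alternatives its adjusted p ran from 1.46e-05 to 1.

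The AFO pools in which Dnaja4 was highest also read high for epithelial genes. Cldn2, an epithelial claudin, read 9.11 and 8.44 in AFO pools 1 and 3 and 4.51 in AFO pool 2, against 3.93 to 5.09 in control fat. Mmp7, an epithelial matrix protease, read 10.29, 6.18 and 9.85 in AFO pools 1, 2 and 3 and 5.65 to 6.57 in control fat. Both were chosen after their values were seen. Of 5 motile cilia markers, the mean was 5.92 and 5.58 on AFO pools 1 and 3 and 4.67 to 4.998 on the other arrays, and Foxj1, the factor that drives ciliation, read 7.17 on AFO pool 1 and 5.42 on AFO pool 3 against 4.02 to 4.57 elsewhere. Of 4 measured epididymis markers, 2 of them above the filter, the mean was 6.99 on AFO pool 1 and 4.18 to 4.45 elsewhere. The part of such cells in the level of Dnaja4 was not tested.

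Small heat shock proteins, which hold unfolded proteins without using ATP, held the next largest differences. Hspb7, a small heat shock protein of heart and skeletal muscle, read 5.98, 5.76 and 6.27 in control pools 1 to 3 and 6.46, 8.66 and 6.37 in the AFO pools. One array, AFO pool 2, stood far above the other 5, and AFO pools 1 and 3 lay just above the controls. Its difference was 1.16 (SE 0.61), and 0.29 without the 2 pool 2 arrays. Hspb6, also called Hsp20 and abundant in muscle, read 7.28, 7.70 and 6.80 in the 3 controls and 7.68, 10.26 and 6.42 in AFO pools. Again AFO pool 2 was high, and AFO pool 3 was the lowest of all arrays, so the groups overlapped. Its difference of 0.86 (SE 0.91) turned to -0.21 without AFO pool 2. Cryab, which encodes the related alpha B crystallin and was listed with the co-chaperones, read 8.64, 8.02 and 8.53 in the 3 controls and 8.79, 11.31 and 8.68 in AFO pools, a difference of 1.20 (SE 0.70).

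On the AFO pool 2 array, where these 3 genes were highest, all 7 skeletal muscle markers also had their highest value. Myh4, a fast muscle myosin, read 12.31 there, 9.84 on AFO pool 1, 10.28 on control pool 2 and 3.13 to 3.48 on the other 3 arrays. The 3 arrays with the highest muscle mean, AFO pool 2, AFO pool 1 and control pool 2, were also the 3 highest for Hspb6, at 10.26, 7.68 and 7.70. On the same arrays Hspb7 read 8.66, 6.46 and 5.76 and Cryab 11.31, 8.79 and 8.02, so both were highest on AFO pool 2 and AFO pool 1 and lowest on control pool 2. Des, the desmin of all muscle types, chosen after its values were seen, read 9.39 on AFO pool 2 and 7.08 to 7.69 elsewhere. The part of muscle RNA in these levels was not tested.

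The remaining small heat shock genes differed less between arrays. Hspb8, a partner of Bag3 in selective autophagy, read 8.55, 8.31 and 8.81 in the 3 controls and 8.93, 8.72 and 9.13 in AFO pools. Each AFO value was above its control of equal pool number, by 0.38, 0.41 and 0.32, yet the groups overlapped because control pool 3 exceeded AFO pool 2. The difference was 0.37, and its SE was 0.18 without pairing and 0.096 with the block (unadjusted limma p 0.082 and 0.0085, adjusted p 0.999999 and 0.99). Its other 2 probe sets above the filter differed by 0.041 and 0.27, and in the first of them AFO was below control in pool 3 by 0.52, so the size and the agreement of the pools rest on the probe set read. Hspb1, the stress-induced Hsp27, read 11.22, 10.59 and 11.33 in the 3 controls and 11.55, 11.28 and 11.55 in AFO pools. Only AFO pool 2 fell within the control values, and control pool 2 was the lowest of the 6. The difference of 0.41 (SE 0.22) was 0.185 without control pool 2. Hspb3, a muscle-type member that is dim here, read 4.71, 5.10 and 4.96 in the 3 controls and 5.05, 5.44 and 5.38 in AFO pools, with AFO pool 1 below the highest control, a difference of 0.36 (SE 0.17). Hspb2 differed by -0.020 (SE 0.28).

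**Figure D3:**
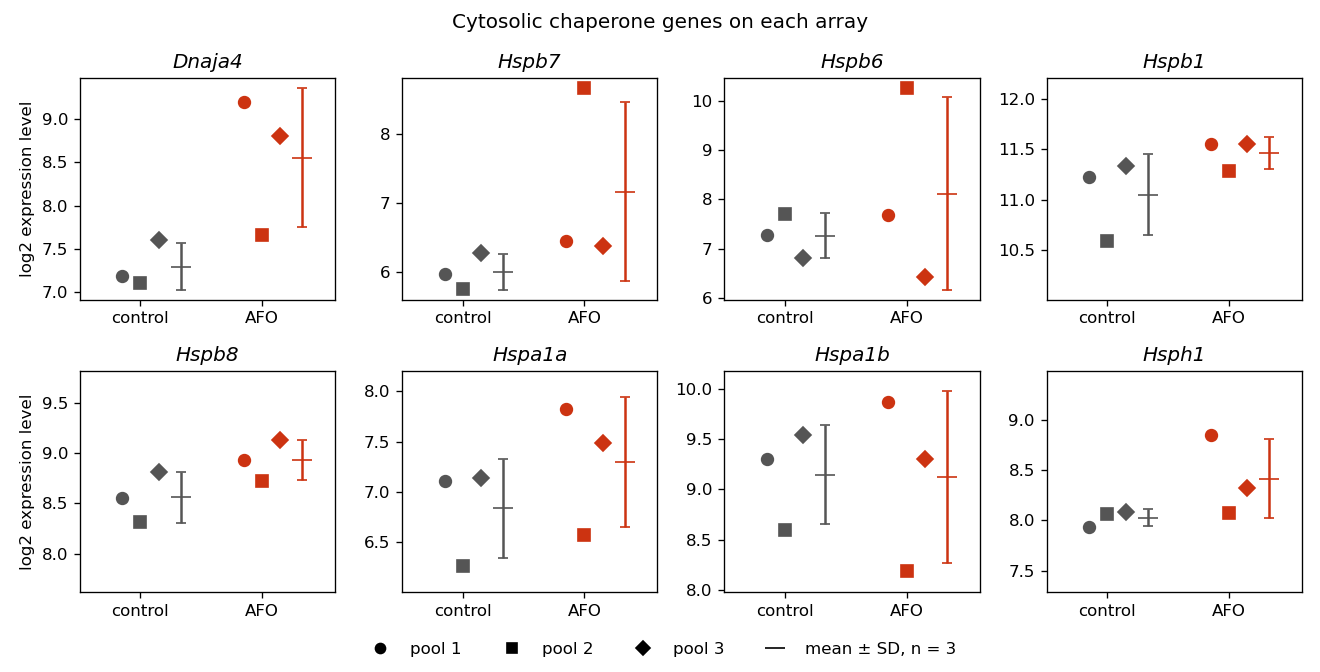
Log2 expression level (vertical axis, its range set for each gene) of 8 cytosolic chaperone genes in control and AFO fat, with 1 symbol per RNA pool and the mean ± SD (n = 3) beside the points. Pool 2 (squares) is the lowest AFO point for Dnaja4, Hspb1, Hspb8, Hspa1a, Hspa1b and Hsph1 and the highest for Hspb6 and Hspb7.

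Heat-inducible Hsp70 genes varied mostly by pool. Hspa1a read 7.11, 6.27 and 7.14 in the 3 controls and 7.83, 6.58 and 7.49 in AFO pools. The pool 2 array was the lowest of each genotype, and each AFO value exceeded the control of equal number. The difference was 0.46 (SE 0.38, and 0.13 with the block). Hspa1b read 9.31, 8.59 and 9.54 in the 3 controls and 9.87, 8.19 and 9.30 in AFO pools, and here AFO was higher in pool 1 and lower in pools 2 and 3, a difference of -0.028 (SE 0.46). The products of Hspa1a and Hspa1b are nearly identical, and probes can read both, so the assignment of signal to either gene is uncertain.

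Constitutive and testis-type Hsp70 members differed in how far they followed the pools. Hspa8, the constitutive Hsc70, ranged over only 0.42 log2 units across the arrays, with a difference of 0.0044 (SE 0.14). Hspa2, best known from the male germ line, read 5.53 and 5.55 on control and AFO pool 2 and 6.48 to 6.82 on the other 4 arrays, so both pool 2 arrays were low in it. Hspa12b, a distant Hsp70 relative of endothelial cells, read 6.16 and 5.62 on control and AFO pool 2 and 7.29 to 7.35 elsewhere, and Hspa12a, a related gene, 6.71 and 6.03 against 7.16 to 7.36. Another Hspa12a probe set of like brightness read 6.94 and 6.67 on control and AFO pool 2 and 6.72 to 7.23 elsewhere. The low Hspa12a value of control pool 2 therefore rests on the probe set read. The mean of 5 endothelial markers was 8.10 and 7.93 on the pool 2 arrays and 8.29 to 8.70 elsewhere, and its part in the level of Hspa12b was not tested. Genotype differences of these genes were 0.17 (SE 0.42) for Hspa2, -0.17 (SE 0.55) for Hspa12b and -0.26 (SE 0.37) for Hspa12a.

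Hsph1, Hsp90aa1 and Dnajb1 were highest on AFO pool 1. Hsph1, the Hsp110 exchange factor, read 7.93, 8.07 and 8.08 in the 3 controls and 8.85, 8.07 and 8.32 in AFO pools. AFO pools 1 and 3 lay above the controls, pool 1 by far the more, and AFO pool 2 lay within them. The Hsph1 difference of 0.39 (SE 0.21) was 0.17 without AFO pool 1. Hsp90aa1, the inducible Hsp90, read 11.19, 11.07 and 11.32 in the 3 controls and 11.64, 11.04 and 11.57 in AFO pools, a difference of 0.22 (SE 0.19). Dnajb1, the inducible Hsp40, read 8.41, 8.40 and 8.88 in the 3 controls and 8.997, 8.10 and 8.77 in AFO pools, a difference of 0.057 (SE 0.27), and Dnaja1, a constitutive J-domain protein, differed by -0.069 (SE 0.17). Their groups overlapped. That array was the highest of the 6 for 13 of 31 cytosolic genes (41.9%), where it was the highest for 17.2% of all genes tested. On that array the mean of the skeletal muscle markers was also 9.62, that of the epididymis markers 6.99 and that of the motile cilia markers 5.92, each above the means of control pools 1 and 3, and their part in the cytosolic values was not tested. In pool 1, AFO exceeded control in 25 of the 31 genes (80.6%, against 55.7% of all genes), in pool 2 in 21 (67.7%, against 45.3%) and in pool 3 in 15 (48.4%, against 44.7%). In 10 of the 31, AFO was above control in all 3 pools (32.3%, against 10.5% of all genes).

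Chaperones of the ER showed no difference by genotype beyond the spread of the arrays. Hspa5, which encodes BiP, the Hsp70 of the ER, read 11.31, 10.87 and 11.58 in the 3 controls and 11.36, 10.94 and 11.08 in AFO pools (Entrez gene 14828). The groups overlapped fully, with both pool 2 arrays low. The difference was -0.12 (SE 0.21, 95% interval -0.63 to 0.38). Hsp90b1, the ER Hsp90 called Grp94, read 10.91, 10.62 and 10.92 in the 3 controls and 10.98, 10.57 and 10.66 in AFO pools, a difference of -0.079 (SE 0.16, 95% interval from -0.46 to 0.30). Its low values were again those of pool 2, with AFO pool 3 near them. Among J-domain partners of BiP, Dnajb9 differed by 0.090 (SE 0.16), Dnajb11 by 0.055 (SE 0.14) and Dnajc3, also known as an inhibitor of eIF2 alpha kinases, by -0.078 (SE 0.24).

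Protein disulfide isomerases, which make and shuffle disulfide bonds, were read from the 4 tested genes of the Pdia kind, all lower in AFO by their means. Members of the family with other names, counted below with the other ER folding genes, went both ways. Pdia3, the partner of the lectin chaperones calnexin and calreticulin, read 10.14, 9.55 and 10.34 in the 3 controls and 10.23, 9.78 and 9.25 in AFO pools. A single array, AFO pool 3, lay below the others, 1.09 under control pool 3, while AFO was higher in pools 1 and 2. The difference of -0.25 (SE 0.31) was -0.0016 without AFO pool 3. Pdia4 and Pdia6 differed by -0.14 (SE 0.16) and -0.12 (SE 0.14), and Pdia5 by -0.050 (SE 0.13). On AFO pool 3 the 3' to 5' difference of beta-actin and of Gapdh was also the highest, and its part in these values was not tested.

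The promoters of 4 ER genes held the ER stress element, the sequence that ATF6 reads together with NF-Y. They are shown because they set these members apart from the cytosolic ones by sequence and not by the arrays. The element was searched on both strands as CCAAT and CCACG with any 9 bases between them, in windows from 250 bases before to 50 after the RefSeq start (build GRCm38.p6), and 61 of the 73 genes had a window. It was found in 4 of 12 ER genes with a window and in 0 of the chaperone genes of other compartments, and in 37 of 27025 genes in all (0.137%). The lines give the 250 bases before the start, 5′ to 3′ on the gene's strand, with the element in capitals. In Hsp90b1 the pair of matches lies in opposite orientation.
Hspa5 (chr2:34771840-34772089, plus strand): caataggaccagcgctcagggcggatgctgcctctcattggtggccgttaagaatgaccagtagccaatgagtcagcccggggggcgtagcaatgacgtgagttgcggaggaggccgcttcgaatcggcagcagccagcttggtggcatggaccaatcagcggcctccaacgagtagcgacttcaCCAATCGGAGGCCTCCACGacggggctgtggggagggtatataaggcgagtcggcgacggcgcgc
Hsp90b1 (chr10:86705445-86705694, minus strand): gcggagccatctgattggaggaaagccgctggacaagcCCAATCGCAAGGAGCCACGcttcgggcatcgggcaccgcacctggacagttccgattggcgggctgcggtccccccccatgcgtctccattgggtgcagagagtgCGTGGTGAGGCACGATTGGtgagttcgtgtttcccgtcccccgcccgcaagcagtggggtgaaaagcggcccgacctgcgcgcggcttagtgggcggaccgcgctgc
Pdia6 (chr12:17266339-17266588, plus strand): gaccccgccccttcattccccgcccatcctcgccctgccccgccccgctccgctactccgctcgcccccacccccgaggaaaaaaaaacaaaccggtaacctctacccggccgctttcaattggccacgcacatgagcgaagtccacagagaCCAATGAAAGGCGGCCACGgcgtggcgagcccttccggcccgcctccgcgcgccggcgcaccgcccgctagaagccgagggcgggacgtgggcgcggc
Dnajc3 (chr14:118937682-118937931, plus strand): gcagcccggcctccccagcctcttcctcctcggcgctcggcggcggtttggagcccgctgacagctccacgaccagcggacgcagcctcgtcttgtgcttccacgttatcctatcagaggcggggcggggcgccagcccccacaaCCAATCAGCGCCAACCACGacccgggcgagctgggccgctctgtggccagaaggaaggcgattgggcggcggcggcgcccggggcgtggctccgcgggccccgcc

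On the arrays the 4 genes with this element read like the other ER genes. All 4 were slightly lower in AFO by their means, between -0.125 and -0.078, with a median of -0.10. The 7 tested ER genes with a window but without the element had a median of -0.050 and a range from -0.255 to 0.09, with 5 of them lower. In pool 2 against pools 1 and 3 the medians were -0.40 in control and -0.26 in AFO with the element, and -0.32 and -0.26 without it. A match is a description of the letters in a window and says nothing about binding in these samples.

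Mitochondrial chaperones differed little by genotype and had a pool pattern of their own. Hspd1, the Hsp60 chaperonin of the matrix, read 10.35, 10.48 and 10.42 in the 3 controls and 10.52, 10.43 and 10.21 in AFO pools, a difference of -0.034 (SE 0.13, 95% interval from -0.34 to 0.27). Its co-chaperonin Hspe1 read 9.99, 10.82 and 10.39 in the 3 controls and 10.32, 10.67 and 9.99 in AFO pools, a difference of -0.079 (SE 0.26). Hspe1 was highest on the pool 2 array of each genotype, and Hspd1 on that of control alone. Hspa9, the mitochondrial Hsp70 called mortalin, and Dnaja3, its J-domain partner, differed by -0.10 (SE 0.16) and -0.12 (SE 0.18). AFO pool 3 was the lowest of the 6 arrays for 5 of the 7 mitochondrial genes (71.4%, against 19.4% of all genes), among them Hspd1, Hspa9 and Dnaja3, and in pool 3 AFO was below control for all 7. Without that array Dnaja3, Hspa9 and Hspd1 differed by 0.024, 0.036 and 0.055. Its high 3' to 5' differences were given above, and their part was not tested.

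Hspd1 and Hspe1 lie head to head on chromosome 1 and share a heat shock element, shown because 1 site lies in the windows of both genes. The element, searched on both strands as GAA, TTC and GAA with any 2 bases between neighbours, is the array of inverted units that Hsf1 trimers bind. It was found in 179 of 27025 genes (0.662%) and in 4 of 61 chaperone genes with a window, Hspd1, Hspe1, Hsph1 and Dnajb6, a J-domain protein that suppresses aggregation. For Hspe1 and Hspd1 overlapping matches lie on both strands, and the same site is printed on each gene's strand. In Hsph1 the match lies after the start. Capitals mark the matches.
Hspe1 (chr1:55088057-55088078, plus strand): cgTTCTAGAACCTTCCGGAAgg
Hspd1 (chr1:55088057-55088078, minus strand): ccTTCCGGAAGGTTCTAGAAcg
Hsph1 (chr5:149636286-149636302, minus strand): gaTTCTGGAAAGTTCtc
Dnajb6 (chr5:29735850-29735866, plus strand): gaGAATCTTCCGGAAcg

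Genes with this element had no common difference, with Hsph1 at 0.39, Hspd1 at -0.034, Hspe1 at -0.079 and Dnajb6 at -0.067 (SE 0.13). Hspa1a, Hspa1b and Dnajb1 had windows without these exact letters, which says only that the letters are not in those windows.

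The pool 2 arrays separated the ER from the mitochondrial chaperone genes more than genotype did. Since pool 2 is no group of the study, this is described without a test. Of 12 ER genes, 9 were below pools 1 and 3 on the pool 2 array of both genotypes (75.0%, against 47.8% of all genes) and 0 were above in both. The median shift of the ER genes on pool 2 was -0.32 in control and -0.26 in AFO fat, against -0.075 and -0.089 for all genes. Of the 7 mitochondrial genes, 5 were above in both genotypes (71.4%, against 30.2% of all genes), with medians of 0.093 and 0.26. A further list of 16 genes of mitochondrial proteostasis, described below, did not share this shift. Of these 16 genes, 5 were above in both genotypes (31.2%) and 8 below, with medians of -0.0056 in control and -0.15 in AFO fat. The split is thus one of the chaperone genes and not of mitochondrial genes at large. Cytosolic genes were spread, with 14 of 31 below and 7 above in both. Their medians were -0.13 in control and -0.24 in AFO fat, the latter near that of the ER genes. Dnajc9, a nuclear J-domain protein that handles histones, read 7.30 and 7.79 on control and AFO pool 2 and 6.53 to 6.79 elsewhere. Dnajc15, a J-domain protein of the mitochondrial inner membrane, read 10.31 and 10.15 on pool 2 and 9.49 to 9.96 elsewhere. Plasma cells are rich in ER, and the mean of 5 of their markers was 7.80 and 7.78 on control and AFO pool 2 against 6.76 to 6.96 elsewhere, so ER chaperones were low where this mean was high. The members of this list were mixed, since Jchain, Mzb1 and Prdm1 were higher on both pool 2 arrays and Sdc1 lower. Irf4 was the highest of the controls on control pool 2, at 9.68. On AFO pool 2 it read 7.84, against 10.43 and 10.24 on AFO pools 1 and 3. The part of these markers in the ER values was not tested.

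**Figure D4:**
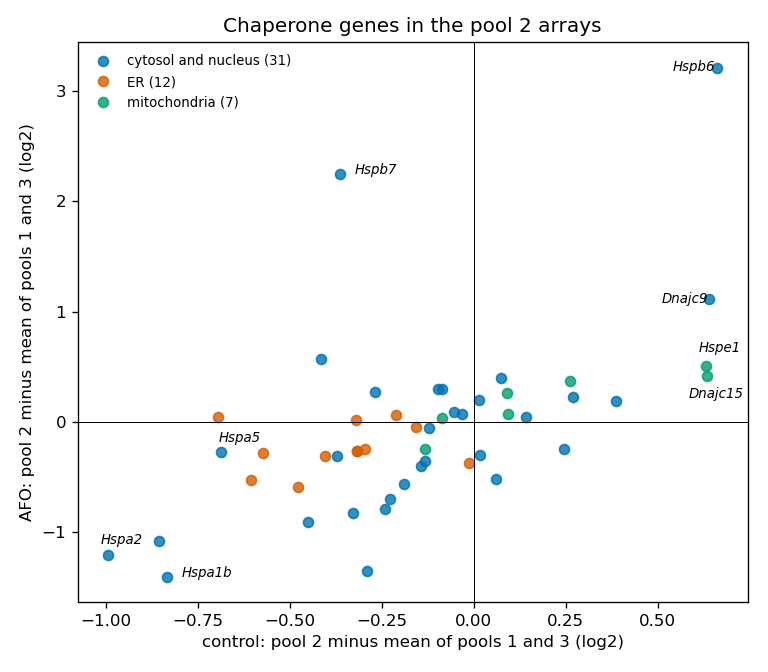
Pool 2 minus the mean of pools 1 and 3 in log2 units, in control (horizontal axis) and AFO fat (vertical axis), 1 point per tested gene of 3 compartments. Hspa2 and Hspa1b lie low in both genotypes, Dnajc9, Hspe1 and Dnajc15 high in both, and Hspb7 is high in AFO pool 2 alone.

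Genes outside these compartments added few differences. On vesicles, Dnajc6, the clathrin-uncoating auxilin, read 6.70, 6.59 and 6.61 in the 3 controls and 7.07, 6.33 and 7.40 in AFO pools, a difference of 0.30 (SE 0.27), Dnajc5, the cysteine string protein of secretory vesicles, differed by 0.19 (SE 0.23) and Dnajc13, an endosomal J-domain protein, by -0.045 (SE 0.23). Every other Dnajc5 probe set above the filter was lower in AFO, with differences from -0.26 to -0.054. In the ER membrane Dnajb12 differed by 0.22 (SE 0.19) and Dnajb14 by -0.20 (SE 0.28). Another Dnajb12 probe set above the filter differed by -0.11. The directions of Dnajc5 and Dnajb12 therefore rest on the probe set read. The 13 unplaced genes ran from -0.26 to 0.24, with 5 higher and 8 lower.

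Folding genes outside the chaperone families were read from 5 further lists, and 0 members of any list passed by limma with or without the block. Of 19 tested genes of the list of co-chaperones and heat shock factors 10 were higher, with a median of 0.0030. Hsf1, Hsf2 and Ptges3 were on that list and were not tested, so the levels of these factors are not described. Beside Cryab, the smallest p of the list belonged to Bag2, an inhibitor of the ubiquitin ligase Chip, at 0.26 (SE 0.23). Of 20 other ER folding genes 10 were higher, with a median of 0.010. Sdf2l1, a BiP-associated protein of the ER, read 6.64, 6.01 and 6.68 in the 3 controls and 6.39, 6.26 and 5.49 in AFO pools, lowest on AFO pool 3, a difference of -0.40 (SE 0.30), and Erp29 differed by 0.22 (SE 0.18). Of these 20 genes 16 were below pools 1 and 3 on both pool 2 arrays (80.0%, against 47.8% of all genes).

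Of 20 genes of the unfolded protein response 10 were higher in AFO, with a median of -0.032. Ppp1r15a, the phosphatase subunit that reverses the eIF2 alpha block of translation, read 7.32, 7.26 and 7.37 in the 3 controls and 7.71, 7.44 and 7.51 in AFO pools. All AFO values lay above the control values, by a narrow margin in pool 2, with a difference of 0.24 (SE 0.13). Atf3, a stress transcription factor, differed by 0.19 (SE 0.15). The largest difference of the list was that of Asns, asparagine synthetase, a target of Atf4, added after its values were seen. It read 10.48, 9.74 and 9.89 in the 3 controls and 10.17, 9.23 and 9.68 in AFO pools. Each AFO value was below its control of equal number, while the groups overlapped, and the difference was -0.34 (SE 0.30, and 0.10 with the block; limma block p 0.016 unadjusted and 0.99 adjusted). In 4 of the 20 genes AFO was lower in all 3 pools and in 2 it was higher, beside 12.8% and 10.5% of all genes. On both pool 2 arrays 10 of the 20 genes were below pools 1 and 3 and 1 was above, beside 47.8% and 30.2% of all genes. The median shifts on pool 2 were -0.24 in control and -0.15 in AFO fat. Of 16 genes of mitochondrial proteostasis 7 were higher, with a median of -0.0087, and the import genes Timm44 and Tomm70a differed by 0.21 (SE 0.13) and 0.13 (SE 0.13). Of 13 genes of the cytosolic chaperonin and prefoldin 8 were higher, with a median of 0.038. Vbp1, a prefoldin subunit, read 9.15, 9.17 and 9.31 in the 3 controls and 9.34, 9.39 and 9.43 in AFO pools, not overlapping, a difference of 0.18 (SE 0.11), and Cct4, a chaperonin subunit, differed by -0.11 (SE 0.11).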

How the data were processed

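Epididymal fat RNA was measured on 6 arrays. Per the submitters' processing notes, the authors made the deposited log2 values with RMA in Affymetrix Expression Console 1.4, which equalises the distributions of the arrays (medians 5.35 to 5.43). A shift shared by most genes is therefore not visible, and differences of dim genes are understated. Of 45101 probe sets, 64 were controls, 932 had several symbols and 9160 were not listed. Those with 1 symbol stayed in where their mean reached the 40th percentile (4.88), and each gene was read from its brightest, giving 13453 genes. AFO and control were compared by limma 3.58.1 in R 4.3.3 (empirical Bayes with trend, Benjamini-Hochberg over all genes), unpaired, with fits tested on simulated data. The number of arrays limits the precision.

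Pool numbers 1 to 3 occur in both genotypes. Across genes, arrays of equal number, each centred on its genotype, correlated at 0.594, 0.799 and 0.589, above the 0.1 set for pairing. Of unequal numbers, control 1 with AFO 3 (0.441) and control 3 with AFO 1 (0.362) also passed that bar. Pool 2 with pools 1 or 3 ran from -0.656 to -0.585. The check thus sets pool 2 apart and cannot show which arrays of pools 1 and 3 belong together. What a number shares is not given in the sources used here.

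The members, compartments and lists were chosen with earlier results of these data known. Named genes were a fixed set of 21 (Hsp90ab1 among them), any called, the 8 with the smallest p, the 8 with the widest range, those with non-overlapping groups and 2 per list. Hspb2, Pdia5, Dnajb6, Dnajb12, Dnajb14, Dnajc5, Dnajc6, Dnajc9, Dnajc13, Dnajc15 and Dnajc22 were added after their values were seen. Alternatives varied filter, normalisation, probe set, empirical Bayes, weights, pairing and arrays used.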

Additional observations from a re-analysis of the deposited data

How the results depend on the processing

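With 3 arrays a genotype, intervals of most chaperone genes are wide beside their differences, and dim genes such as Hspb3 lie near the filter. The count of chaperone genes called was 0 in all alternatives except those without both pool 2 arrays, where it was 1 (Dnaja4), with or without the replicate block. The count over all genes was 2 with the replicate block, 91 once both pool 2 arrays were left out and 270 if the block was added. Leaving out 1 array at a time gave 0 to 27, and the 27 came without AFO pool 2. The replicate block changed no other call. The cytosolic median ran from 0.037 to 0.217 with 1 array left out, the lowest without control pool 2. Of 28 named chaperone genes 12 kept their direction in every alternative.

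Directions turned as follows, and the cause was not tested. With array weights, whose iteration stopped early, Dnaja1 read 0.10, Dnajc3 0.014, Hspa1b 0.17, Hspd1 0.026 and Hspe1 0.17. Without both pool 2 arrays, with or without the replicate block, Dnaja1 read 0.015, Hspa12b 0.017 and Hspa1b 0.16. With the mean of probe sets Dnajb1 read -0.0033, and with probe sets not ending in _x_at or _s_at Hspa8 read -0.064 and Hspe1 0.00043. With 1 array left out the ranges were -0.197 to 0.0623 for Dnaja1, -0.243 to 0.0244 for Dnaja3, -0.132 to 0.318 for Dnajb1, -0.0265 to 0.12 for Dnajb11, -0.237 to 0.119 for Dnajc3, -0.2 to 0.00332 for Hsp90b1, -0.503 to 0.142 for Hspa12a, -0.553 to 0.402 for Hspa12b, -0.402 to 0.439 for Hspa1b, -0.16 to 0.574 for Hspa2, -0.316 to 0.0378 for Hspa5, -0.103 to 0.105 for Hspa8, -0.189 to 0.0362 for Hspa9, -0.212 to 1.71 for Hspb6, -0.0991 to 0.0554 for Hspd1 and -0.284 to 0.132 for Hspe1. None of these genes passed in any alternative.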

Other observations

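Several probe sets of a chaperone gene could be compared for 41 of the 68 tested genes. In 17 all probe sets above the filter differed in 1 direction between genotypes and in 24 their signs were mixed, and in 0 genes did they spread over more than 0.5 log2 units. Dnaja4 (0.95 to 1.43), Hspb7 (0.66 to 1.16), Hspb1 (0.32 to 0.41) and Hsph1 (0.15 to 0.39) were higher in AFO by every such probe set, and Hspa5 (-0.12 to -0.087) and Hsp90b1 (-0.18 to -0.079) lower. Hsp90aa1 ran from -0.17 to 0.22, so its direction rests on the probe set read. The Hspb7 probe set below the filter read 5.78 on AFO pool 2 and 3.35 to 3.80 on the other arrays. A Dnajc22 probe set below the filter read 5.06, 4.21 and 4.54 in AFO pools 1 to 3 and 3.62 to 3.68 in control fat. Its groups did not overlap, and its difference was 0.95 where the Dnajc22 probe set used gave 0.14. Such unused probe sets without overlap went both ways. Those of Hspb7, Dnajb5 (0.15) and Dnajc2 (0.21) were higher in AFO, and those of Dnajb6 (-0.18) and Hspa14 (-0.22) lower.

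Over the 6 arrays, 13 of the 68 genes ranged over more than 1 log2 unit, as did 18.5% of all genes tested. The 5 genes below the filter stayed between 2.34 and 4.44 on every array.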
